A study of Rattus norvegicus with 6 samples.

Results

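The cell cycle and mitosis genes described here are 38 genes listed by name for their known roles, with earlier results of these data known, and 37 of them had a row of that name among the 34257 genes of the deposited table. They were followed in cultured neonatal rat ventricular cardiomyocytes, heart muscle cells isolated from newborn rats, given perhexiline at 1 µM for 24 h or vehicle. Perhexiline, used against angina, blocks carnitine palmitoyltransferase and so the entry of long fatty acids into mitochondria. There were 3 poly(A) RNA-seq libraries per group, and the labels name no genetic change in either group. The labels do not say whether the libraries came from separate cultures or animals, so p-values speak only of the spread among these libraries, which may be technical. The members were read apart as 14 genes of S phase and 24 genes of G2 and mitosis, of which 23 had a row. Cyclin B2 (Ccnb2) had no row of that name and is not analysed here as a member. Rows under other names that are described as cyclin B2 are given below, apart from the members.

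A dividing cell loads the MCM helicase on DNA before S phase, and copies the genome in S phase, under cyclin E and cyclin A. It then builds a spindle and separates its chromosomes under cyclin B and Cdk1. S phase genes are switched on by E2F factors, whereas many mitosis genes are switched on later, through CCAAT boxes bound by NF-Y and through CHR elements bound by the MuvB complex. Cardiomyocytes largely leave the cell cycle soon after birth, and cultures made from newborn hearts also hold non-muscle cells that can divide.

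The promoter letters of both gene classes are shown because the members of each class were read together below. RefSeq windows of 300 bases, from 250 before to 50 after each gene's start (build GRCr8), were found for 30 of the 37 members. There were none for Aurkb, Ccna2, Ccne2, Cdc6, Mcm4, Rrm2 and Tpx2. The letters searched on both strands were TTTGAA and TTCGAA for the CHR, CCAAT for the CCAAT box, and TTTGGCGC, TTTCCCGC, TTTCGCGC and TTTGCCGC for E2F sites. CHR letters stood in 14 of 20 mitosis windows and in 2 of 10 S phase windows, against 19.7% of all 33469 windows. E2F letters stood in 1 of 20 mitosis windows and in 7 of 10 S phase windows, against 2.14% of all windows. CCAAT letters stood in 16 of 20 mitosis windows and in 6 of 10 S phase windows, against 37.5% of all windows. The 170 bases before the start are printed for 4 mitosis genes and for 2 S phase genes, 5′ to 3′ on the gene's strand. They lie at chr2:33655226-33655395 (minus strand) for Ccnb1, chr10:84473094-84473263 (minus) for Top2a, chr20:19265123-19265292 (plus) for Cdk1, chr1:199952594-199952763 (minus) for Mki67, chr13:42404353-42404522 (minus) for Mcm6 and chr9:120776084-120776253 (minus) for Tyms. Capitals mark the searched letters on either strand, where ATTGG is CCAAT and TTCAAA is TTTGAA read from the other strand, and E2F letters may overlap each other, as in Mcm6.
Ccnb1: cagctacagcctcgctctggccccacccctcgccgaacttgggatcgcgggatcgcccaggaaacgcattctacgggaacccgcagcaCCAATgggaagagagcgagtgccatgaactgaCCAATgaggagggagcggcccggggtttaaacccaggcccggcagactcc
Top2a: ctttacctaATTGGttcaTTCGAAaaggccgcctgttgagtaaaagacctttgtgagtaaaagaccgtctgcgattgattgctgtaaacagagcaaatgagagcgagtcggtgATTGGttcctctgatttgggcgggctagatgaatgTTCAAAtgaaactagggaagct
Cdk1: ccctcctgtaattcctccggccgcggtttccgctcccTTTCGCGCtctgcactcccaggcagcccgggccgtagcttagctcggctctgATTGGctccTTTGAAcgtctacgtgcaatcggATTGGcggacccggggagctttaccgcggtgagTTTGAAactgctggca
Mki67: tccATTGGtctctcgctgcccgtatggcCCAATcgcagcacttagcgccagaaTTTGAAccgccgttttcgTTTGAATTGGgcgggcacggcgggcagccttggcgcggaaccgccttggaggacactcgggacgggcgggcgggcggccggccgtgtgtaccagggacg
Mcm6: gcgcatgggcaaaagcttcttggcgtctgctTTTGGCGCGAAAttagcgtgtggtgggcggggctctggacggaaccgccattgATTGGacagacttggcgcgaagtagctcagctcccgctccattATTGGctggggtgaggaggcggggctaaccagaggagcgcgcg
Tyms: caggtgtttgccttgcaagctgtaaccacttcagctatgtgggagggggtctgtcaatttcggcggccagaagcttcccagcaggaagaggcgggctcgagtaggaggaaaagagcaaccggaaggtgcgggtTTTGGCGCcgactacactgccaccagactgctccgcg

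Most mitosis genes had lower levels in perhexiline cultures than in vehicle cultures, whereas the S phase genes showed smaller and mixed differences. The median ratio of mean FPKM, perhexiline over vehicle, was 0.746 over the 23 mitosis members and 0.934 over the 14 S phase members, beside 1.01 over the 15034 genes with a mean FPKM of at least 0.5. FPKM is a fragment count scaled by gene length and sequencing depth. The mean was lower with perhexiline for 22 of 23 mitosis members and for 11 of 14 S phase members, against 48% of those 15034 genes. All 3 perhexiline libraries lay below all 3 vehicle libraries for 17 mitosis members and 3 S phase members, against 14.1% of the same genes. They lay above for 1 mitosis member and 2 S phase members, against 15.9%. Few of these differences passed the test over all genes, which was limma on log2(FPKM + 1) for 13460 genes. Genes entered it if 3 or more libraries reached an FPKM of 1, and were called where the p adjusted by Benjamini-Hochberg was under 0.05. The mitosis members Ttk, Cenpf and Nusap1 entered only through the vehicle libraries, so counts over tested members are given as a description only. One mitosis member, Ccnb1, fell and none rose, and no S phase member passed. Of all tested genes 6.66% were called, 418 (3.11%) lower and 478 (3.55%) higher. At an unadjusted p under 0.05, 16 of 23 mitosis members and 2 of 13 tested S phase members were lower, against 12.3% of all tested genes. In the higher direction there were 0 mitosis members and 1 S phase member, against 13.4%.

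**Figure D1:**
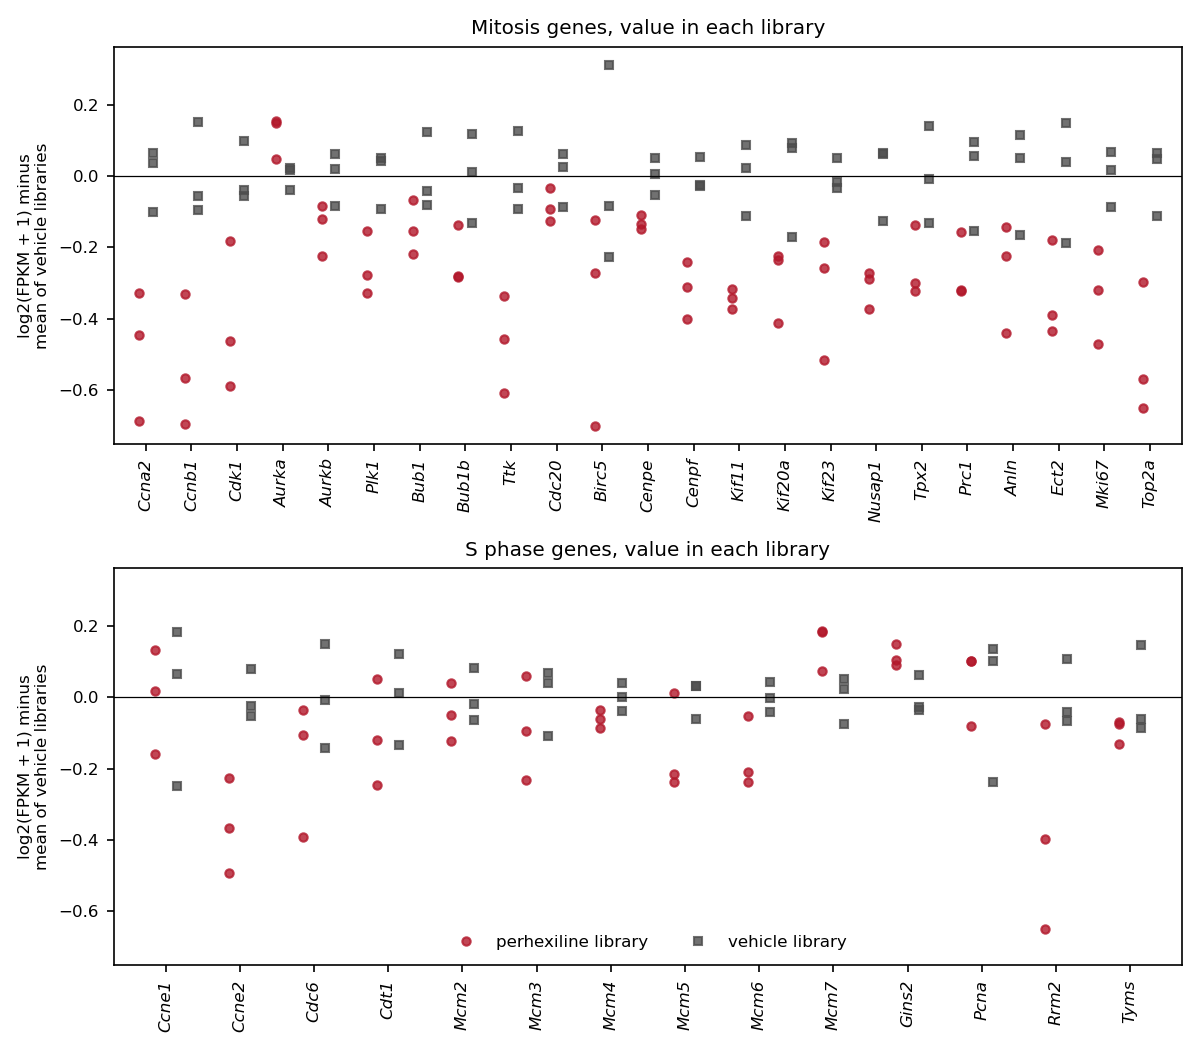
Value of each member in each library on the log2(FPKM + 1) scale, minus the mean of the vehicle libraries; circles are perhexiline libraries, squares are vehicle libraries, and the panels hold 23 mitosis and 14 S phase genes. The perhexiline points lie below every vehicle point for 17 mitosis genes and 3 S phase genes.

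The number of calls depended on single libraries and on the test. Without perhexiline replicate 1 there were 3 mitosis calls, Ccnb1, Cdk1 and Top2a, and 1 S phase call, Rrm2. Leaving out any other library gave 0 calls in both classes. The calls over all genes that were lower numbered from 35 to 471 in these fits. With limma-voom on the fragments recovered from the FPKM values, 7 of 23 mitosis members were called lower, against 5.98% of tested genes. These were Ccna2, Ccnb1, Ttk, Cenpf, Kif11, Mki67 and Top2a, with voom adjusted p-values from 0.00874 for Top2a to 0.0252 for Kif11. Ttk and Cenpf entered only through the vehicle libraries, so this count is given as a description only. The same fit called 1 S phase member, Ccne2, lower (limma-voom adjusted p = 0.0401) and none of the 36 tested members higher, against 5.62% of tested genes. In the fits run with other scalings, filters, pseudocounts or left-out libraries, 22 of 23 mitosis members had a negative difference. Without 1 vehicle library it was 19 of 20, and with a filter at a mean FPKM of 5 it was 4 of 4. Of the 13 tested S phase members, 10 had a negative difference, against 8 under total-fragment scaling, 9 without perhexiline replicate 1 or without vehicle replicate 1, and 7 of the 10 fitted with a filter at a mean FPKM of 5.

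The cyclins and the kinase that drive entry into mitosis were among the members with the largest differences on the log2(FPKM + 1) scale. This scale understates changes of low genes, and the ratio of means was 0.727 for Cdk1 against 0.657 for Kif11. Ccnb1 (chromosome 2, 30783915 to 30791221, minus strand in the deposited table, with a build not given in the sources used here) encodes cyclin B1, the partner of Cdk1. It stood at 4.24, 3.45 and 3.07 FPKM in perhexiline libraries, against 5.34, 5.17 and 6.32 FPKM in vehicle libraries. No perhexiline library reached the lowest vehicle library. Its log2 difference was -0.53 ± 0.12 (SE; limma adjusted p = 0.0445), a ratio of means of 0.639. The adjusted p was 0.0335 without perhexiline replicate 1. Without perhexiline replicate 2 or 3 it was 0.139 or 0.126, and without vehicle replicate 1, 2 or 3 it was 0.1125, 0.0966 or 0.0831. Ccnb1 also missed the threshold under total-fragment scaling (limma adjusted p = 0.0538), with the filter at a mean FPKM of 0.5 (0.0516) and with no filter (0.1105).

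Cdk1 (chromosome 20, 20576377 to 20591549), the kinase of cyclins A and B, had 7.17, 5.73 and 5.16 FPKM in perhexiline libraries and 8.91, 8.02 and 7.91 FPKM in vehicle libraries. The groups did not overlap, and perhexiline replicate 1 was the nearest to vehicle. Its log2 difference was -0.41 ± 0.11 (SE; limma adjusted p = 0.0717). Ccna2, which encodes cyclin A2 and acts in S phase as well as at entry into mitosis, averaged 2.30 ± 0.409 FPKM with perhexiline and 3.61 ± 0.277 FPKM with vehicle (SD, n = 3 each, as throughout). Its ratio of 0.637 was close to that of Ccnb1, and the groups did not overlap (limma adjusted p = 0.0552). A pseudogene row that the deposited table describes as cyclin B2, AABR07000658.1, was picked out after its values were seen. It held 0.779, 1.33 and 0.812 FPKM in perhexiline libraries, against 2.16, 1.90 and 2.36 FPKM in vehicle libraries. Its groups did not overlap, and it fell by 0.68 ± 0.15 on the log2 scale (SE; limma adjusted p = 0.0390). Given how this row was picked, its p-value is a description only. Reads of a gene and of a near-identical copy may be counted under either. Of 3 further unnamed rows described as cyclin B2, with 2 to 26 fragments per library, the groups overlapped for 2, with ratios of 0.941 and 0.997. The third held 0.531, 0.527 and 0.317 FPKM in perhexiline libraries, against 0.201, 0.120 and 0.132 FPKM in vehicle libraries, all higher with perhexiline, from 2 to 10 fragments, and was too low for the filter.

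Among the kinases of mitosis, the Aurora genes had differences of opposite sign. Aurka, the kinase of centrosomes and spindle poles, was the only mitosis member with a higher mean, at 3.90, 3.56 and 3.92 FPKM with perhexiline and 3.30, 3.47 and 3.49 FPKM with vehicle. The libraries did not overlap, yet the difference of 0.12 ± 0.084 on the log2 scale did not pass (limma adjusted p = 0.419). Aurkb, the kinase of the chromosomal passenger complex, had 1.59, 1.78 and 1.849 FPKM with perhexiline and 2.06, 2.15 and 1.851 FPKM with vehicle. It counts among the 17 members without overlap although the highest perhexiline and the lowest vehicle library were nearly equal, and the log2 difference was -0.14 ± 0.11 (SE; limma adjusted p = 0.437). Birc5, or survivin, belongs to the same complex and had overlapping groups, at 1.96 ± 0.583 FPKM with perhexiline and 2.81 ± 0.760 FPKM with vehicle. It was also read from few fragments, 20 to 44 per library. Plk1, a kinase of spindle assembly and cell division, averaged 4.25 ± 0.327 FPKM with perhexiline and 5.25 ± 0.340 FPKM with vehicle, with no overlap (limma adjusted p = 0.124).

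The spindle checkpoint delays chromosome separation until every chromosome is attached. Its kinase gene Ttk had 0.752, 0.452 and 0.611 FPKM in perhexiline libraries, against 1.07, 1.16 and 1.42 FPKM in vehicle libraries. This ratio of 0.497 was the lowest of the 37 members, from 24 to 67 fragments per library, with limma adjusted p = 0.0857. The pseudocount of 1 reduced its log2 difference to -0.47 ± 0.14 (SE), whereas limma-voom gave -1.01 ± 0.24 (SE; adjusted p = 0.0206). Ttk entered the test only through the vehicle libraries, so its p-values are given as a description only. Bub1b and Bub1, which encode the checkpoint proteins BubR1 and Bub1, had ratios of 0.773 and 0.859, and the libraries overlapped for Bub1. Cdc20 encodes the activator of the anaphase-promoting complex that the checkpoint restrains. It had the highest vehicle level of the mitosis members, at 9.62 ± 0.352 FPKM with perhexiline and 10.3 ± 0.602 FPKM with vehicle, and its groups overlapped (limma adjusted p = 0.481).

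The 5 members described next act at kinetochores and in spindle assembly. Cenpf, a large kinetochore protein, averaged 0.778 ± 0.0973 FPKM with perhexiline and 1.22 ± 0.0725 FPKM with vehicle, and Cenpe, a kinetochore motor, averaged 1.22 ± 0.0322 FPKM with perhexiline and 1.44 ± 0.0879 FPKM with vehicle. The groups did not overlap for either gene. Kif11, the motor that pushes spindle poles apart, had 1.12, 1.09 and 1.04 FPKM with perhexiline, against 1.69, 1.45 and 1.81 FPKM with vehicle. Its perhexiline libraries lay close together and well below those with vehicle (limma adjusted p = 0.114). The spindle assembly genes Tpx2 and Nusap1 had ratios of 0.802 and 0.642, with limma adjusted p-values of 0.177 and 0.175, and neither overlapped. Nusap1 entered the test only through the vehicle libraries, so its p-value is a description only.

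For 5 members of the central spindle and of cytokinesis, the division of the cell body, ratios lay between 0.677 and 0.811. The motor genes Kif20a and Kif23 stood at 0.778 and 0.703 of their vehicle means, and Prc1, which bundles the central spindle, at 0.804, all with no overlap. Ect2, which activates the contractile ring, and Anln, which encodes the ring scaffold anillin, stood at 0.677 and 0.811, and their groups overlapped. The limma adjusted p-values of the 5 genes ran from 0.137 for Prc1 to 0.182 for Ect2.

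The general proliferation markers Top2a and Mki67 had lower means as well, and neither passed the limma test. For Pcna and Mcm2, described below, the groups overlapped. Top2a (chromosome 10, 86901007 to 86932154), which untangles sister chromosomes, had 2.93, 2.26 and 2.07 FPKM in perhexiline libraries, against 4.04, 3.99 and 3.47 FPKM in vehicle libraries. Its groups did not overlap, and its log2 difference of -0.51 ± 0.12 (SE) missed the threshold narrowly (limma adjusted p = 0.0511). Mki67 (chromosome 1, 207993895 to 208020454), the gene of the Ki-67 antigen, had 3.41, 2.67 and 3.08 FPKM with perhexiline and 4.34, 4.16 and 3.80 FPKM with vehicle. No perhexiline library reached a vehicle one, the ratio was 0.746, and limma adjusted p = 0.0936. Mki67 and Top2a were read from 415 to 628 and from 198 to 341 fragments per library, so counting error was smaller for them than for Ttk or Birc5.

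**Figure D2:**
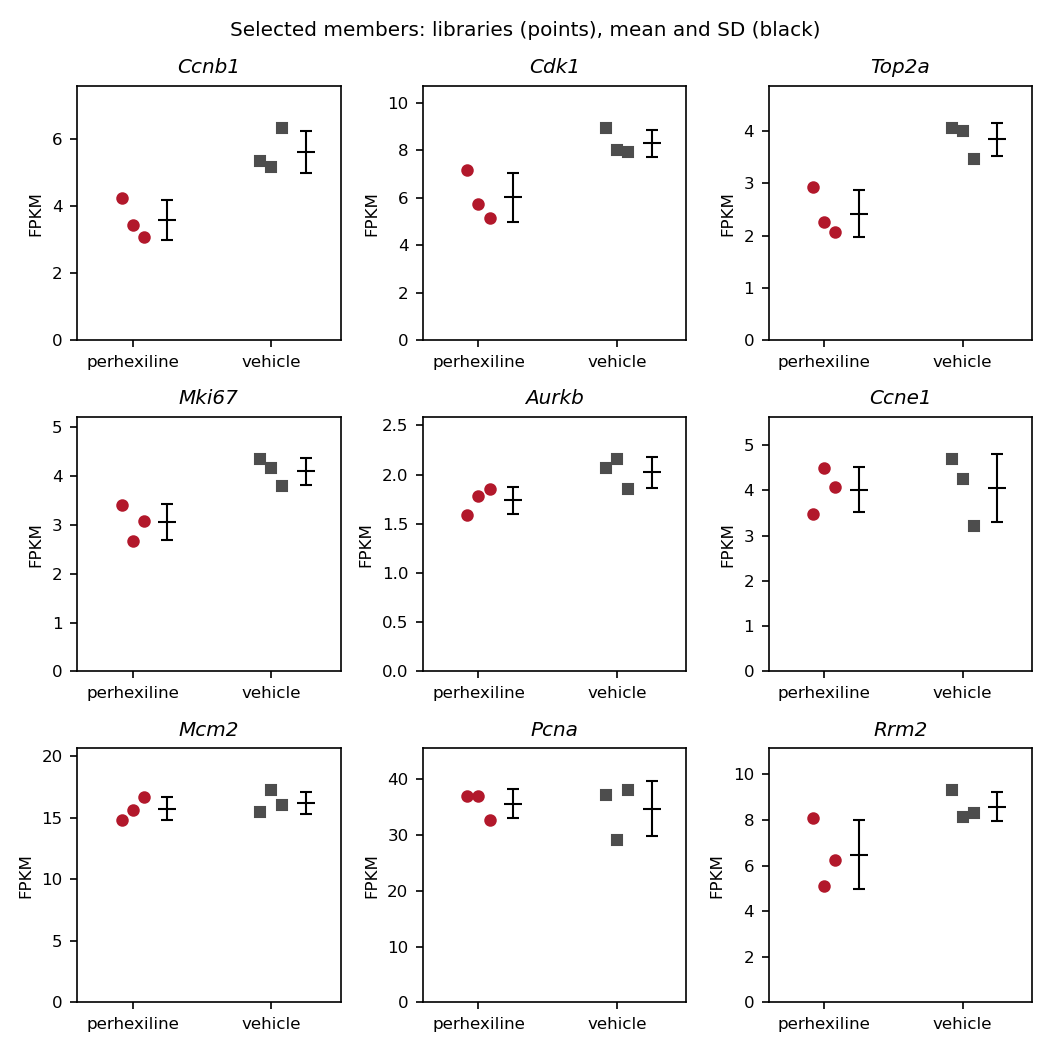
FPKM of 9 members in each library, with 3 perhexiline libraries as circles and 3 vehicle libraries as squares; the black bar beside each group is the mean with its SD, and each axis starts at 0. Ccnb1, Cdk1, Top2a and Mki67 show separate groups, while Ccne1, Mcm2 and Pcna overlap.

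S phase members showed smaller and mixed differences. The 6 subunits of the MCM helicase, which unwinds DNA at the fork, ranged from 5.71 to 24.5 FPKM with perhexiline and from 6.40 to 22.0 FPKM with vehicle, with Mcm5 the lowest and Mcm7 the highest in both groups. Mcm2 had 14.8, 15.7 and 16.7 FPKM with perhexiline, against 15.5, 17.2 and 16.0 FPKM with vehicle. The groups overlapped, and its log2 difference of -0.04 ± 0.068 (SE; limma adjusted p = 0.725) became 0.0097 under total-fragment scaling. Mcm7 was higher in every perhexiline library, at 23.2, 25.1 and 25.1 FPKM, than in any vehicle library, at 20.8, 22.8 and 22.4 FPKM. Mcm6 was lower in every perhexiline library, at 9.07, 9.27 and 10.46 FPKM, than in any vehicle library, at 11.2, 10.9 and 10.54 FPKM, although the nearest libraries differed little. Neither passed the test (limma adjusted p = 0.178 for Mcm7 and 0.203 for Mcm6). Mcm3, Mcm4 and Mcm5 had ratios of 0.935, 0.955 and 0.891, with overlapping groups.

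The genes that load and assist the helicase had differences of either sign, none of which passed. Cdt1 and Cdc6 encode the loading factors. Cdt1 averaged 4.28 ± 0.551 FPKM with perhexiline and 4.67 ± 0.495 FPKM with vehicle. Cdc6, the lowest of all members, averaged 0.603 ± 0.201 FPKM with perhexiline and 0.809 ± 0.184 FPKM with vehicle and was too low for the filter. Gins2, a subunit of the GINS complex that travels with the helicase, was higher in every perhexiline library than in any vehicle library, at 7.03 ± 0.171 FPKM with perhexiline and 6.41 ± 0.283 FPKM with vehicle (limma adjusted p = 0.335). Pcna, the sliding clamp of DNA polymerases and the most abundant member, had 37.0, 37.0 and 32.5 FPKM with perhexiline and 37.0, 29.0 and 37.9 FPKM with vehicle. Its groups overlapped fully, with a difference of 0.041 ± 0.11 on the log2 scale (SE; limma adjusted p = 0.840) that was -0.078 without vehicle replicate 2.

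Among the cyclins E and the enzymes of DNA precursors, single genes stood lower. Rrm2, the regulated subunit of ribonucleotide reductase, had 8.08, 5.10 and 6.26 FPKM with perhexiline, against 9.30, 8.14 and 8.29 FPKM with vehicle. Perhexiline replicate 1 lay just under the lowest vehicle library, and the log2 difference was -0.37 ± 0.14 (SE; limma adjusted p = 0.152). Without perhexiline replicate 1 the difference was -0.52 (limma adjusted p = 0.0447) and without perhexiline replicate 2 it was -0.24 (0.352), with p-values from 0.191 to 0.333 without any other library. Tyms, which makes thymidylate, averaged 18.0 ± 0.452 FPKM with perhexiline and 19.3 ± 1.84 FPKM with vehicle, with overlapping groups. The products of both cyclin E genes start S phase with Cdk2. The difference between these genes was not tested. Ccne2 averaged 2.07 ± 0.281 FPKM with perhexiline and 2.93 ± 0.190 FPKM with vehicle, with no overlap (limma adjusted p = 0.0883). Ccne1 had 3.49, 4.50 and 4.08 FPKM with perhexiline and 4.69, 4.25 and 3.22 FPKM with vehicle, and its groups overlapped. Its log2 difference was -0.0027 ± 0.14 (SE; limma adjusted p = 0.992), and it ran from -0.13 without vehicle replicate 3 to 0.088 without vehicle replicate 1.

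The classes also differed in level. The median level of the mitosis members was 2.30 FPKM with perhexiline and 3.42 FPKM with vehicle. That of the S phase members was 7.32 FPKM with perhexiline and 8.36 FPKM with vehicle. Among all tested genes, the vehicle medians lay at percentile 23.3 for mitosis and 43.2 for S phase. Pcna, Mcm7, Tyms, Mcm2, Mcm4 and Mcm6 led the order of vehicle levels, and Ttk, Cenpf, Nusap1 and Cdc6 closed it. Of the 36 pairs of neighbours in that order, 13 differed by more than the larger SD of the pair, 7 of them between the most abundant members from Pcna to Anln. From Ccnb1 down to Ccna2 no neighbours differed by more than their SD. The members were read from 18 to 1089 fragments per library, with a median of 162.

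**Figure D3:**
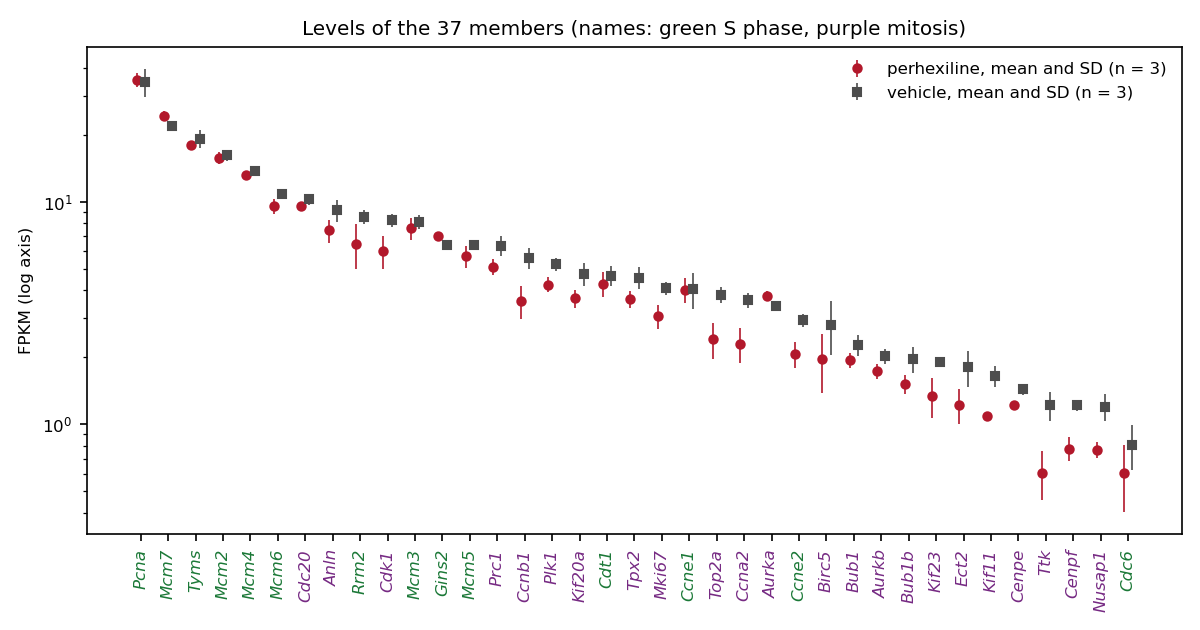
Mean FPKM of 37 members on a log axis, ordered by the vehicle mean; circles are perhexiline, squares vehicle, and bars the SD of 3 libraries. S phase genes hold the 6 highest places, from Pcna at 34.7 FPKM with vehicle to Mcm6 at 10.9 FPKM.

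The perhexiline libraries were not alike in their mitosis members. Perhexiline replicate 1 held the highest of the 3 perhexiline values for 18 of 23 mitosis members and for 6 of 14 S phase members. The mean of log2(FPKM + 1) over the mitosis members, relative to the vehicle mean, was -0.20, -0.33 and -0.34 in the perhexiline libraries and 0.03, -0.04 and 0.01 in the vehicle libraries. For the S phase members it was -0.08, -0.09 and -0.11 in the perhexiline libraries and 0.02, -0.01 and -0.01 in the vehicle libraries. The median log2 difference was -0.31 over the 23 tested mitosis members and -0.09 over 13 tested S phase members, beside 0.01 over all tested genes. The 23 include Ttk, Cenpf and Nusap1, which entered only through the vehicle libraries, so the mitosis median is a description only. It was also -0.31 with the filter at a mean FPKM of 0.5, which all members pass. The S phase median was -0.049 without perhexiline replicate 3. Among mitosis members with a promoter window, the median was -0.32 for the 14 with CHR letters (-0.51 to -0.08). It was -0.22 for the 6 without them (-0.53 to 0.12), with Ccnb1, Aurka and Bub1 among the 6. Only TTTGAA and TTCGAA were searched, so the 6 may hold other forms of the CHR. The difference between the 14 and the 6 was not tested.

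The other genes of the pathway were read from longer lists of both classes. Of 68 further mitosis genes in the table, 53 had a lower mean and 22 lay with all perhexiline libraries below all vehicle libraries, while 3 lay above. Of 50 further S phase genes, 32 had a lower mean, 8 lay below and 2 above. Over the 15034 genes with a mean FPKM of at least 0.5, 48% had a lower mean, 14.1% lay below and 15.9% above. That mean was reached by 64 of the 68 mitosis genes and 47 of the 50 S phase genes. The counts and the shares therefore cover slightly different sets of genes. The S phase count of 8 below was near the share over all genes. In the test, 1 of 56 further mitosis genes fell and none rose, beside 3.11% and 3.55% of all tested genes, with a median log2 difference of -0.15. The fall was that of Nuf2, a subunit of the kinetochore complex that binds microtubules, with 1.77, 1.79 and 1.49 FPKM in perhexiline libraries and 3.38, 2.94 and 2.42 FPKM in vehicle libraries (limma adjusted p = 0.0464). Among 44 further S phase genes, Pola2 fell and none rose, with a median of -0.05. Pola2, a subunit of the polymerase that starts each DNA strand, had 15.6, 13.7 and 14.1 FPKM with perhexiline, against 20.5, 18.6 and 17.6 FPKM with vehicle (limma adjusted p = 0.0380). The groups were separate for both genes. Nuf2 passed in 1 and Pola2 in 2 of the 6 fits without 1 library, where limma adjusted p reached 0.133 for Nuf2 and 0.130 for Pola2.

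Regulators of the cycle were read from 3 further lists, of 14, 19 and 5 tested genes, in which 2 genes were called, both higher, beside 6.66% of all tested genes called in either direction. Of 14 G1 cyclins, kinases and their regulators, Myc was the only call and rose, and the list median was -0.02. Myc, a transcription factor that drives growth and entry into the cycle, averaged 20.7 ± 2.25 FPKM with perhexiline and 9.47 ± 0.972 FPKM with vehicle (limma adjusted p = 0.00805), and it passed in all 6 fits without 1 library. Of 19 tested E2F, RB, MuvB and FOXM1 regulators, Lin37 was the only call and rose, and the list median was -0.03. Lin37, a MuvB subunit, averaged 24.9 ± 1.41 FPKM with perhexiline and 20.6 ± 0.312 FPKM with vehicle (limma adjusted p = 0.0423), passed in none of those 6 fits, where it was 0.0603 to 0.136, and reached 0.0623 with limma-voom. None of 5 tested CDK inhibitors passed with limma. At an unadjusted limma p under 0.05, 2 were higher and 0 lower, against 13.4% and 12.3% of all tested genes. Cdkn1a, which encodes the inhibitor p21, had 144, 181 and 154 FPKM with perhexiline, against 111, 109 and 138 FPKM with vehicle. All perhexiline libraries exceeded the vehicle ones, and the mean difference was 0.42 ± 0.11 on the log2 scale (SE; limma adjusted p = 0.0700, or 0.0229 with limma-voom). It passed in 1 of the 6 fits without 1 library, where limma adjusted p ran from 0.0322 without vehicle replicate 3 to 0.195 without perhexiline replicate 2. Cdkn1b, which encodes p27, averaged 37.2 ± 4.10 FPKM with perhexiline and 40.1 ± 4.25 FPKM with vehicle, and its groups overlapped.

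**Figure D4:**
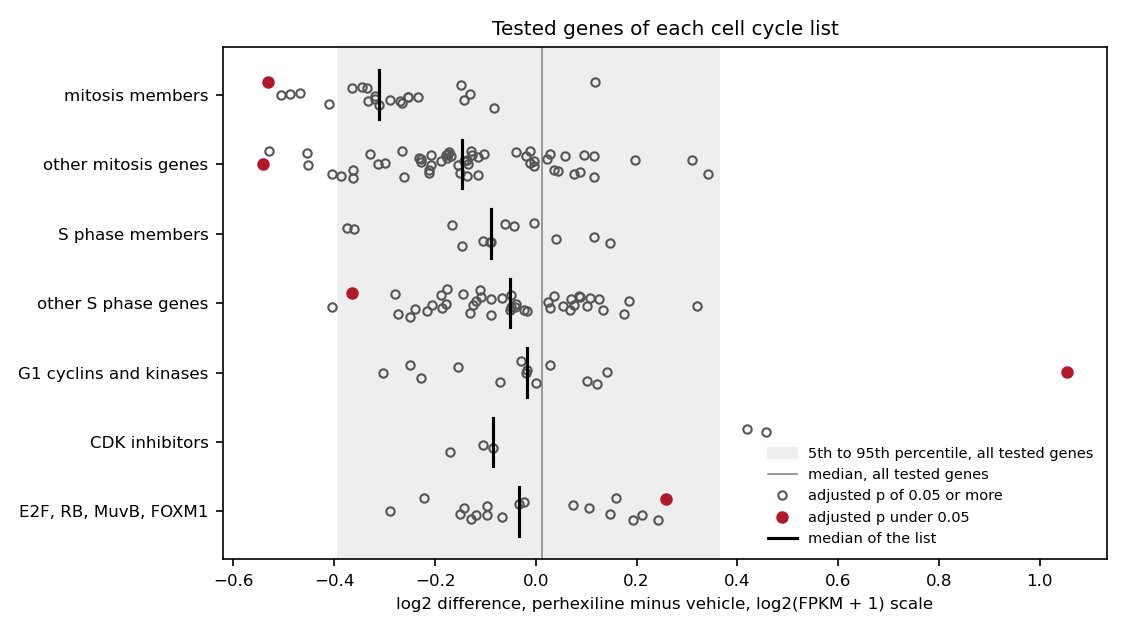
Log2 difference, perhexiline minus vehicle, on the log2(FPKM + 1) scale for the tested genes of 7 cell cycle lists; filled points passed an adjusted p of 0.05, black bars are list medians, and the grey band spans the 5th to 95th percentile of all 13460 tested genes. The median lies at -0.31 for the mitosis members and at -0.09 for the S phase members. The mitosis median is a description only, since Ttk, Cenpf and Nusap1 entered only through the vehicle libraries.

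Markers of several cell types were present in the cultures, and some of them differed between the groups. In bulk RNA, fewer cells of a type and less RNA per cell cannot be told apart. The counts of markers called stand beside 3.11% of all tested genes called lower and 3.55% called higher. Cardiomyocyte markers were abundant, with 8 of 9 at a lower mean with perhexiline, 4 called lower and none higher. Their summed level was 11333 to 13002.5 FPKM with perhexiline and 11929 to 14494 FPKM with vehicle, and the most abundant, the troponin gene Tnnt2, averaged 3029.7 ± 206 FPKM with perhexiline and 3658 ± 282 FPKM with vehicle. All 12 macrophage markers had a lower mean with perhexiline, and of the 10 tested 3 were called lower and none higher. Their summed level was 61.0 to 99.8 FPKM with perhexiline and 118 to 129 FPKM with vehicle, and the lysozyme gene Lyz2 was the most abundant. Of 10 fibroblast markers, 2 were called higher (Dcn and Pdgfra) and 2 lower (Col3a1 and Thy1), and 5 had a lower mean. The fibroblast sum was 1007 to 1053 FPKM with perhexiline and 1049 to 1088 FPKM with vehicle, of which the collagen gene Col1a1 gave 477 ± 5.46 FPKM with perhexiline and 538 ± 21.8 FPKM with vehicle. Smooth muscle and pericyte markers, led by the actin gene Acta2, summed to 589.9 to 775 FPKM with perhexiline and 763 to 1100.4 FPKM with vehicle, with 6 of 9 lower and none called. Endothelial markers, led by the receptor gene Kdr, summed to 19.2 to 20.4 FPKM with perhexiline and 17.7 to 21.0 FPKM with vehicle, with 5 of 9 lower, none called, and Cldn5 listed at 0 in all 6 libraries. No macrophage, fibroblast, smooth muscle or cardiomyocyte marker in the table was at 0 throughout. Perhexiline replicate 1 had the highest sum of the perhexiline libraries for the mitosis members and for the cardiomyocyte, macrophage and smooth muscle markers. The same held narrowly for the endothelial markers, at 20.35 FPKM against 20.33 FPKM in perhexiline replicate 2. The part of these cell types in the differences of mitosis genes was not tested.

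**Figure D5:**
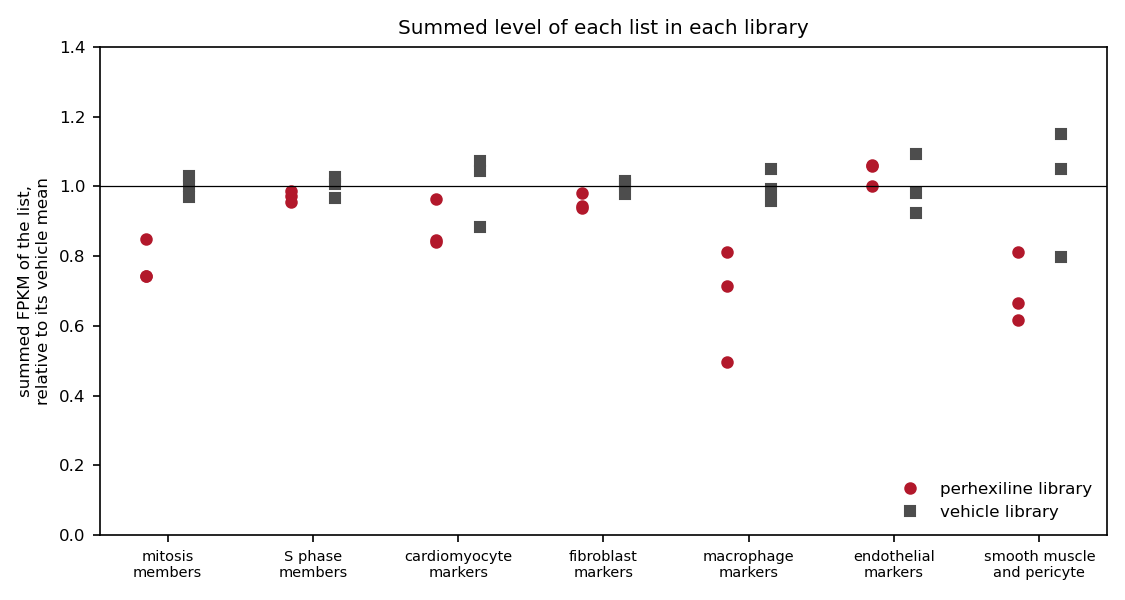
Summed FPKM of each list in each library, divided by the mean of its 3 vehicle libraries, with perhexiline libraries as circles and vehicle libraries as squares. The mitosis and macrophage lists have all perhexiline libraries below all vehicle libraries, at 66.0 to 75.4 FPKM against 86.0 to 91.3 FPKM for the mitosis members.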

How the data were processed

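The deposited table holds FPKM per gene and library, per the file headers, with a gene length for each gene. The submitters' processing notes name HISAT2 2.0.5 and DESeq2 without a role for either. Build, annotation, counting program and use of strand were not given in the sources used here. In each library, FPKM times length was a whole multiple of 1 step for 100% of positive values (tolerance 0.01). These multiples were taken as fragments, 14863929 to 16702523 per perhexiline library and 13616252 to 15241994 per vehicle library. Libraries of 1 group differed beyond counting error, with chi-square over degrees of freedom between 4.70 and 8.14.

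Genes that reached FPKM 1 in 3 or more libraries entered limma 3.58.1 (R 4.3.3), fitted to log2(FPKM + 1) with a mean-variance trend and group as the only term, two-sided. All adjusted p-values are from this fit unless limma-voom is named. The pseudocount understates changes of low genes. Every member is named. Values per library are given for called members and a set of standard markers. Other cell cycle lists are represented by called genes, or by their 2 most abundant genes where none passed, and marker lists by sums and their most abundant gene. Values given beyond this were chosen after they were seen. The members, their split and the lists were chosen with earlier results of these data known. Counts over all members used a filter on the mean (FPKM of 0.5) that all 37 pass, added after the data were seen.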

Additional observations from a re-analysis of the deposited data

How the results depend on the processing

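Mitosis members called lower numbered 1, against 7 with limma-voom, 2 under upper-quartile scaling, 0 to 3 without 1 library, and 0 under total-fragment scaling, with no filter, with a filter at a mean FPKM of 5 or 0.5, and with the replicate block (Ccnb1 limma adjusted p = 0.1025). The filter at 5 left 4 mitosis members without Ccnb1, so it does not bear on that call. S phase calls numbered 0, against 1 with limma-voom and 0 to 1 without 1 library. Placing Ccna2 with the S phase genes left both counts at 1 and 0. Calls over all genes were 478 higher and 418 lower. They were 815 and 333 under total-fragment scaling, 99 and 63 with no filter, 757 and 805 with limma-voom, 101 and 72 with the replicate block, and 69 to 423 and 35 to 471 without 1 library. Other cell cycle genes had 2 higher and 2 lower calls, 1 and 0 with no filter or with the replicate block, 4 and 7 with limma-voom, 4 and 2 at a mean of 5, 2 and 1 at a mean of 0.5, and 1 to 3 and 0 to 4 without 1 library. The S phase median of -0.09 was -0.038 under total-fragment scaling and -0.10 to -0.049 without 1 library. The mitosis median of -0.31 was -0.42 with a pseudocount of 0.1 and -0.33 to -0.25 without 1 library. Uncalled differences changed sign for Ccne1 (0.043 under total-fragment scaling, -0.13 to 0.088 without 1 library), Mcm2 (0.0097 under total-fragment scaling) and Pcna (-0.078 without vehicle replicate 2, and up to 0.11 without 1 other library). Of 556 values of single genes under an alternative, 504 kept direction and side of the threshold. Most belong to genes that the limma fit did not call, so this share says little about the calls. Of the genes it called, Ccnb1 passed in 4 of 13 alternatives, Nuf2 in 5 of 13 and Lin37 in 5 of 14. Pola2 passed in 8 of 14 and Myc in 14 of 14. The cause of these changes was not tested. Same-numbered libraries of the groups had deviations correlated at -0.02, -0.10 and -0.04, and differently numbered ones at -0.05 to 0.09. With 3 libraries per group, these values cannot settle whether same-numbered libraries share material. The labels do not say, so the replicate block is given only as an alternative fit. Depth limits Ttk, Birc5 and Cdc6 most, each with fewer than 70 fragments in every library.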

Other observations

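Some genes of mitosis stood higher with perhexiline while most stood lower. They were picked out after their values were seen, and none passed the test. Gtse1, a microtubule-binding protein of G2 and mitosis, had 19.9, 23.8 and 20.6 FPKM with perhexiline and 14.9, 15.9 and 19.5 FPKM with vehicle, with no overlap (limma adjusted p = 0.102). Zwint, a kinetochore protein, stood at 93.0 ± 6.23 FPKM with perhexiline and 81.0 ± 4.70 FPKM with vehicle (SD, n = 3 each; limma adjusted p = 0.115), far above every other kinetochore gene named here. Cks2, a small subunit of CDK complexes, averaged 7.42 ± 1.02 FPKM with perhexiline and 5.84 ± 1.22 FPKM with vehicle, and its groups overlapped. Among the regulators, Mybl2, the MYB protein of the MuvB complex, averaged 1.44 ± 0.252 FPKM with perhexiline and 1.98 ± 0.0490 FPKM with vehicle, with no overlap (limma adjusted p = 0.175). Foxm1, which acts on mitosis genes, overlapped between the groups, at 3.17 ± 0.331 FPKM with perhexiline and 3.37 ± 0.218 FPKM with vehicle. Cdkn2b, which encodes the CDK4 inhibitor p15, averaged 3.29 ± 0.340 FPKM with perhexiline and 2.15 ± 0.516 FPKM with vehicle, with no overlap (limma adjusted p = 0.0957).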
